A study of Mus musculus with 48 samples.

Results

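Chromatin accessibility was compared between tumour-infiltrating progenitor CD8 T cells that carried a guide RNA against Zfp219 and cells of the same sorted state that carried the control guide, all recovered from aged hosts. The comparison holds 4 of the 48 libraries of the study, 2 labelled Zfp219KO and 2 labelled OTC, the name the labels give the control guide, and it was made over all 53868 peaks of the deposited table. All 4 libraries are of Cas9-expressing OT-1 CD8 T cells, whose T cell receptor recognises a peptide of ovalbumin. Those cells had received a lentiviral guide with a fluorescent reporter and entered the hosts 1 day before B16-OVA melanoma cells, a mouse tumour line that makes ovalbumin. They were sorted from the tumours on day 15. The sorted state is Tprog (progenitor exhausted), gated as Slamf6+Tim-3-. The other states used below are Ttran, which has Slamf6 and Tim-3, Tterm, which has only Tim-3, and Ttad, which lacks both. Host age was taken from the titles, with A read as aged and Y as young, and an age in months is not given in the sources used here. Donor cells of both groups carry CD45.1, Cas9 and the ametrine reporter of the vector, and the sort kept cells positive for CD45.1 and ametrine. Each library is a pool of sorted cells from independent mice, 5000 to 50000 cells in number, and the study calls the pools biological replicates. How mice were assigned to pools, and whether 1 set of mice gave all states of a guide, is not given in the sources used here.

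Progenitor exhausted cells are the CD8 T cells of a tumour that keep the transcription factor TCF-1 (Tcf7), divide, and give rise to terminally exhausted cells, which carry Tim-3 (Havcr2) and more granzyme. Zfp219 encodes a zinc-finger transcription factor of the nucleus. ATAC-seq uses the Tn5 transposase to insert adapters into open DNA, so the reads in a peak measure how accessible that site is, not how much RNA its gene makes. A peak is named below by the protein-coding gene whose body it overlaps or else by the nearest gene within 100 kb, a label of position that does not show which gene the site acts on. It is called a promoter peak where it overlaps the window from 250 bases before to 50 bases after an annotated start.

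The labels were checked first. Zfp219 has 4 peaks, and none of them differed between the groups. Its promoter peak (chr14:52019226-52020740, mm10) held 991 and 1095 normalized reads in the OTC libraries and 1092 and 1036 in the Zfp219 libraries, so the groups overlap, with a log2 difference of 0.03 ± 0.09 (SE; adjusted p = 0.931, limma). Accessibility at a gene does not measure whether its coding sequence was cut, so these values check nothing about the edit. The sorted state was checked at its gating genes in the OTC libraries of aged hosts, where 20.1% of all peaks differed between Tprog and Tterm. At the strongest Slamf6 peak the log2 difference of Tprog from Tterm was 0.67 ± 0.15 (SE; adjusted p = 0.000357, limma), and at the strongest Havcr2 peak it was -1.21 ± 0.08 (adjusted p = 4.68e-22, limma). At the strongest Tcf7 peak it was 0.23 ± 0.09 and missed the threshold (adjusted p = 0.0502, limma).

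Reads in peaks were 11511619 and 14660613 in the OTC libraries and 9160914 and 12792515 in the Zfp219 libraries, within the range of 5638413 to 29942755 over all 48. Replicates correlated over peaks at r = 0.967 (OTC) and r = 0.960 (Zfp219), against 0.950 to 0.961 between the groups, where peaks are not independent replicates. Markers of other cells were checked by the same test. The summed level of 17 peaks at melanoma genes was 3524 and 3598 in OTC and 3672 and 3712 in Zfp219, and none of the 17 was called. Of the 30 peaks at myeloid genes 1 was called, a Cebpb peak that was higher, with summed levels of 5127 and 5306 against 5813 and 5526. None of the 12 peaks at B cell genes was called (1116 and 1066 against 844 and 917). Of 56 peaks on the NK and CD4 list 1 was called, an Il2ra peak that was lower, with summed levels of 14883 and 15092 against 14407 and 14733. That list holds Eomes (14 peaks), Ctla4 (12) and Il2ra (15), genes not confined to NK and CD4 cells. Its sum is therefore no measure of those cells. Tyr, Tyrp1, Dct and S100b of the melanoma list, Lyz2, Csf1r, Adgre1 and C1qa of the myeloid list, Cd79a, Cd79b and Ms4a1 of the B cell list, and Foxp3 had no peak. The part of other cells in the results was not tested.

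The Zfp219 guide went with changes at 1378 of 53868 peaks (2.56%) at an adjusted p under 0.05 (limma, Benjamini-Hochberg over all peaks). Accessibility was higher in the Zfp219 libraries at 598 peaks (1.11%) and lower at 780 (1.45%). Most changes were modest: the median log2 change was 0.73 at the higher peaks and -0.67 at the lower ones, and 384 of the 1378 changed by at least 1 on the log2 scale, 188 up and 196 down. The 4 libraries did not overlap between groups at 1373 of the called peaks, where 45.4% of all peaks do not overlap. Scaling the libraries on the strongest 25% of peaks instead shifted the balance to 483 higher and 1046 lower (31.6% higher against 43.4%). Quantile normalization gave 777 higher and 816 lower. Fitting the compared groups alone, with the scaling unchanged, gave 504 higher and 1113 lower. The excess of lower peaks thus depends in size on the scaling and on the libraries fitted.

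With 2 libraries a group, 1 library can decide a call. Fewer peaks were called without any of the 4: 427 without OTC replicate 1 (234 higher, 193 lower), 663 without OTC replicate 2 (357 and 306), 489 without Zfp219 replicate 1 (197 and 292) and 880 without Zfp219 replicate 2 (305 and 575). Lower peaks were thus the majority with both OTC libraries in and the minority with either left out. A group of 143 peaks (61 higher, 82 lower) was called with each of the 4 left out in turn, and 395 were called only when all 4 were in. An exact permutation test of 2 against 2 libraries cannot give a two-sided p below 0.333, so the p-values rest on the spread shared by all 48 libraries.

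**Figure D1:**
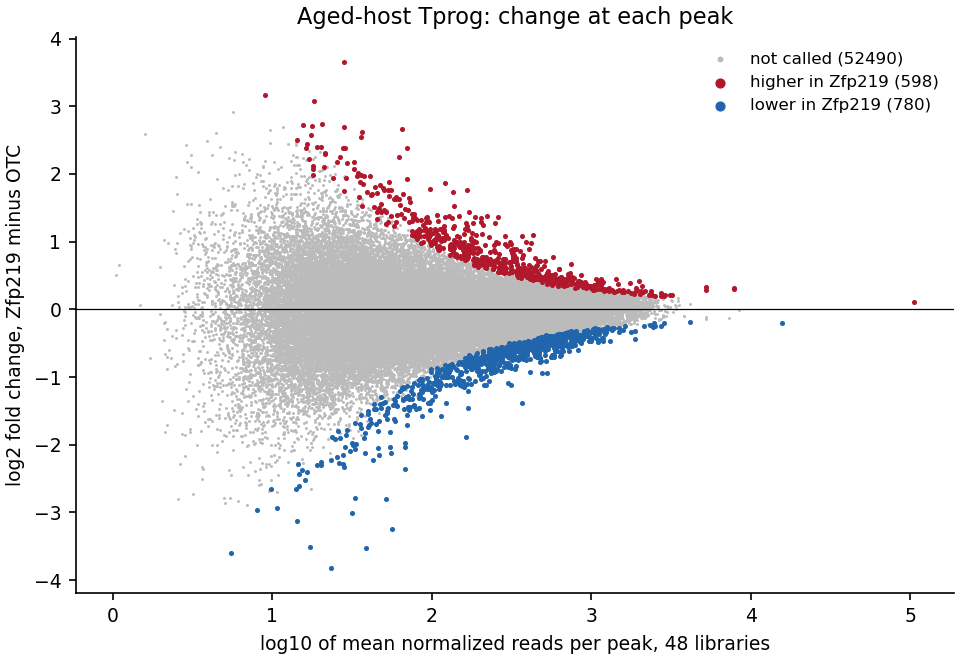
Log2 fold change of each of the 53868 peaks (Zfp219 minus OTC, aged Tprog, y axis) against the log10 of its mean normalized reads over 48 libraries (x axis). Red points are the 598 peaks called higher, blue the 780 called lower and grey the peaks not called. Called peaks of small change lie at strong peaks, and called peaks that changed by more than 2 lie at weak ones.

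The 12 peaks with the lowest adjusted p were chosen after their values were seen, and all 12 were called with each library left out in turn (highest adjusted p 0.00185, limma). The lowest of all belongs to a peak with no protein-coding gene within 100 kb (chr7:58454969-58456243). It held 504 and 456 normalized reads in the OTC libraries against 178 and 189.8 in the Zfp219 libraries, a log2 change of -1.38 ± 0.14 (SE; adjusted p = 7.96e-11, limma). A second gene-free peak (chr6:15568020-15569564) fell from 967 and 902 to 455 and 515. Beside Mtss1, which encodes a scaffold that binds actin and membranes, a peak (chr15:59158581-59159513) fell from 171 and 179 normalized reads to 49.8 and 43.7, a log2 change of -1.89 ± 0.23. A peak near Gm30733 fell by 0.94 on the log2 scale.

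The higher peaks of that group lie at genes with varied roles. In Cmklr1, which encodes a receptor for the chemoattractant chemerin, a peak (chr5:113639096-113641977) held 146 and 112 normalized reads in OTC and 284 and 264 in Zfp219, a log2 change of 1.09 ± 0.14 (adjusted p = 5.02e-08, limma). In Rasl12, a Ras-like GTPase gene, 51 and 38.2 normalized reads became 135 and 172, a log2 change of 1.76 ± 0.21. Each of these gaps exceeds the spread between the libraries of a group, which choosing peaks by lowest adjusted p favours. Beside Mef2a, a transcription factor gene of the MEF2 family, 174 and 192 normalized reads became 378 and 400.0. Near Tafa3, which encodes a small secreted protein, 77 and 79.8 became 218 and 189.8. In Apbb2, an adaptor gene, 28.3 and 37.3 became 92.4 and 80.2. Zfp219 libraries were above both OTC libraries at all 3, which the same choice favours.

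**Figure D2:**
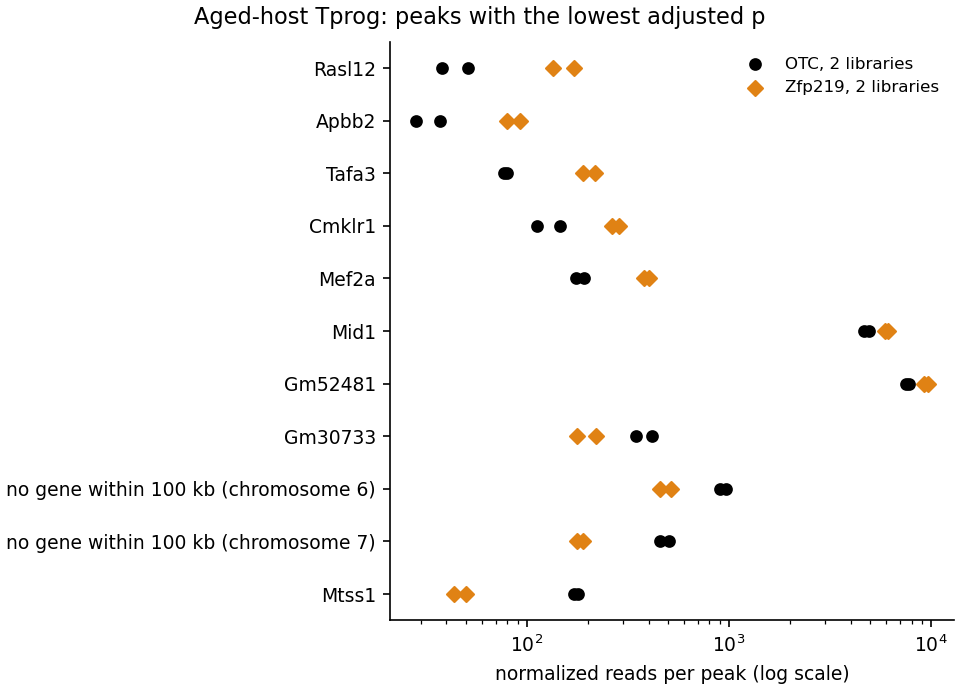
Normalized reads per library (log x axis) at peaks among the 12 with the lowest adjusted p, 1 row a peak. Black circles are the 2 OTC libraries and orange diamonds the 2 Zfp219 libraries of aged Tprog. The groups are apart at each peak drawn, and the Mid1 and Gm52481 rows sit at the highest levels with the smallest change.

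Promoters were rare among the lower peaks. Of 9253 promoter peaks, 100 were higher (1.08%, against 1.11% of all peaks) and 34 were lower (0.367%, against 1.45%), so promoters made up 16.7% of the higher peaks, 4.36% of the lower peaks and 17.2% of all. The gap between higher and lower peaks in that share narrowed without OTC replicate 1, OTC replicate 2 or Zfp219 replicate 1. Promoters were then scarce among the higher peaks too. Promoter peaks also took a larger share of all normalized reads in the Zfp219 libraries, 40.1% and 40.0%, than in the OTC libraries, 38.3% and 38.5%, with a range of 37.2% to 41.3% over the libraries of aged hosts. The part of that share in the promoter result was not tested. Scaling on the strongest 25% of peaks gave 63 higher and 50 lower promoter peaks. Without OTC replicate 1 the counts were 20 and 14, without OTC replicate 2 33 and 17, without Zfp219 replicate 1 12 and 14, and without Zfp219 replicate 2 63 and 26, so the excess of higher over lower promoters was lost without Zfp219 replicate 1.

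The 6 lower promoter peaks with the lowest adjusted p were called with each library left out in turn, and 2 of them belong to granzymes, serine proteases that cytotoxic T cells release to kill targets. At the Gzme promoter peak (chr14:56120101-56121340) the OTC libraries held 61.1 and 49.7 normalized reads and the Zfp219 libraries 18.5 and 17.3. Both Zfp219 values lie below both OTC values, a log2 change of -1.57 ± 0.27 (SE; adjusted p = 5.66e-05, limma). The Gzmf promoter peak (chr14:56210967-56211902) held 15.9 and 15.1 normalized reads in OTC and 0 and 2.03 in Zfp219, which are 31 reads in all against 2. OTC was 13 times Zfp219 there, with an exact 95% interval of 3.31 to 112 that covers counting error only (adjusted p = 1.52e-05, limma).

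Across the granzyme cluster of chromosome 14 the change was not shared by every gene. The Gzmc promoter peak was lower (89.5 and 57.7 normalized reads against 27 and 43.7, adjusted p = 0.043, limma), and lost the call without OTC replicate 1 or without Zfp219 replicate 1. The Gzmd promoter peak held 12.5 and 18.6 against 7.11 and 6.09 and was not called (adjusted p = 0.291, limma). The Gzmb promoter peak, the strongest of the cluster, held 532 and 589 against 603 and 610 and was not called either (log2 difference 0.12 ± 0.10, adjusted p = 0.653, limma). Gzmb encodes the main granzyme of activated CD8 T cells. Granzyme genes of this cluster are close copies, and the authors' handling of reads that fit several copies is not given in the sources used here, so the split of reads among them is uncertain.

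The 250 bases before the start of Gzme and of Gzmf are printed because these are the promoters with the largest fall among those kept with each library left out. Both come from RefSeq (GRCm38.p6, minus strand, chr14:56120626-56120875 and chr14:56211408-56211657), read 5′ to 3′ along the gene, with TGTGGT (the letters of a Runx site) and GGAAGT (the letters of an Ets site) in capitals, as TGTGGT and GGAAGT or their reverse complements ACCACA and ACTTCC.
Gzme: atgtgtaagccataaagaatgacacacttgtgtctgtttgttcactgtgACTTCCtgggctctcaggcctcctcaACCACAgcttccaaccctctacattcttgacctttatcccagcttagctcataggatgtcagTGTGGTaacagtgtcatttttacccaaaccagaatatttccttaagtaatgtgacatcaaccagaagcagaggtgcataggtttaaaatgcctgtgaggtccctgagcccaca
Gzmf: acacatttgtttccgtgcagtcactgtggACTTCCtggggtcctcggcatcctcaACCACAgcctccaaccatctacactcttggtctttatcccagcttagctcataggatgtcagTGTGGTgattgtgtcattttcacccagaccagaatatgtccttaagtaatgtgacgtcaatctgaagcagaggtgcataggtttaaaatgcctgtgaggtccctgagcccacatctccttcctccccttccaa
An alignment of the pair gave 203 identical bases, 26 mismatches and 42 gap positions, 74.9% identity with the gap positions counted. The windows are offset against each other, so bases at their ends have no partner. The bases that do align are more alike than that share. Each sequence holds TGTGGT once on each strand and GGAAGT once, on the other strand, and the G+C content is 44.8% and 48.8%. Over 300-base promoter windows, TGTGGT on either strand was present in 10 of the 34 windows of lower peaks (29.4%), in 14 of 100 of higher peaks (14%), in 12.6% of the 9248 windows in peaks and in 16.8% of all 32851. GGAAGT was in 35.3% of the windows of lower peaks, 29.0% of higher peaks and 28.5% of those in peaks. The median G+C content was 55.2% in the windows of lower peaks and 61.7% in those of higher peaks and in all windows in peaks. The part of G+C content in these shares was not tested. The 34 windows include Gzme and Gzmf, whose sequences are alike and not independent. These are matches of letters, not binding.

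The other 4 lower promoters hold genes of other kinds. Kctd8, which encodes an auxiliary subunit of the GABA-B receptor, fell from 277 and 291 normalized reads to 112 and 135 (chr5:69339985-69341758), a log2 change of -1.20 ± 0.21 (adjusted p = 0.000101, limma). Gpr35, a G protein-coupled receptor gene, fell from 129 and 119 to 56.9 and 57.9. Card10, a scaffold gene of NF-kB signalling, fell from 387 and 350.4 to 209 and 235. Gstp3, a glutathione transferase gene, fell from 1584 and 1479 to 1066 and 1152.

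The 6 higher promoter peaks with the lowest adjusted p changed less, and none was called with each library left out in turn. At Clybl, which encodes a mitochondrial lyase, the promoter peak (chr14:122181203-122182078) held 324 and 303 normalized reads in OTC and 516 and 455 in Zfp219, a log2 change of 0.63 ± 0.13 (adjusted p = 0.0011, limma), and its highest adjusted p with a library left out was 0.077. Zbtb37, a zinc-finger gene, went from 893 and 913 to 1332 and 1151. Prmt1, the main arginine methyltransferase of the cell, went from 1809 and 1607 to 2175 and 2078. Qdpr, which recycles tetrahydrobiopterin, went from 1164 and 1375 to 1730.2 and 1557. The peaks at Zfand4 and Trim5 rose by 0.81 and 0.47 on the log2 scale. Without Zfp219 replicate 1, 1 of the 6 was called, and without OTC replicate 1, 3 were. The 3 sequences below show the GGGGG runs that were searched because ZNF219, the human counterpart, is a zinc-finger protein reported to bind G-rich DNA. They are the 250 bases before the start, from RefSeq (GRCm38.p6), 5′ to 3′ along the gene: Clybl chr14:122181444-122181693 plus strand, Prmt1 chr7:44986421-44986670 minus strand and Zbtb37 chr1:161034850-161035099 minus strand. Capitals mark GGGGG or its reverse complement CCCCC.
Clybl: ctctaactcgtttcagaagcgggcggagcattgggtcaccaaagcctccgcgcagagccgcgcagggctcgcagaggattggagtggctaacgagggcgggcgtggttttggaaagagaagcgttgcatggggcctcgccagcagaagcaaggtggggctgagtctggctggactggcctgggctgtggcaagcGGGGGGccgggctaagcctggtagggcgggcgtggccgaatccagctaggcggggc
Prmt1: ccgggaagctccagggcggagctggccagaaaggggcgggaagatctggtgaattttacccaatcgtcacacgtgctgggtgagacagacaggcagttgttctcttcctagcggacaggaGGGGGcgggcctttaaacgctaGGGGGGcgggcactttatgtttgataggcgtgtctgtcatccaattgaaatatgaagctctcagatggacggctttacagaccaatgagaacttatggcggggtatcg
Zbtb37: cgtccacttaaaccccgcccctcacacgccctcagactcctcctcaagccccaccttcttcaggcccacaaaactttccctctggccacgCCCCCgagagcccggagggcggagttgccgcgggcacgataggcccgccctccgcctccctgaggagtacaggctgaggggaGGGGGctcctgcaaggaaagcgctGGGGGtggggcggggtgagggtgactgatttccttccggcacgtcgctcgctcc
GGGGG on either strand was present in 60 of the 100 windows of higher peaks (60%), in 24 of the 34 of lower peaks (70.6%), in 65.0% of the windows in peaks and in 51.0% of all windows. The share among higher peaks is below that of promoter windows in peaks, and nothing about binding follows from it.

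Peaks of the effector and cytotoxic list, 16 genes with 165 peaks, were called higher at 5 and lower at 5 (6.06% of its peaks called, against 2.56% of all peaks), with a median log2 change of 0.07 against -0.01 over all peaks. The genes of this and the other lists were not drawn to match all peaks in signal strength, so nothing particular to a list is read from its share. The 5 higher peaks lie at Gzmk (3), Klrg1 and Prdm1, and the 5 lower at Prf1 (2), Il2, Ifng and Gzmc. Gzmk encodes a granzyme of memory-like and transitional CD8 T cells. Its peak at chr13:113169708-113170653 held 139 and 145 normalized reads in OTC and 273 and 249 in Zfp219, a log2 change of 0.87 ± 0.15 (SE; adjusted p = 7.45e-05, limma). Its promoter peak held 15.9 and 31.9 against 81 and 45.7 (log2 change 1.39 ± 0.41), and 1 more peak rose by 0.56. At Klrg1, which encodes an inhibitory lectin receptor of effector cells, a peak held 162 and 151 normalized reads in OTC against 326 and 299 in Zfp219, a log2 change of 0.99 ± 0.14 (adjusted p = 1.23e-06, limma). The first Gzmk peak and the Klrg1 peak were called with each library left out.

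Besides the Gzmc peak described above, the lower peaks of the list lie at a pair of cytokine genes and at Prf1, which encodes perforin, the pore former that lets granzymes into a target. A peak near Il2, the gene of the T cell growth factor interleukin-2, fell from 919 and 858 normalized reads to 573 and 615, a log2 change of -0.58 ± 0.13 (adjusted p = 0.00382, limma). A peak near Ifng, the interferon gamma gene, held 73.6 and 80.7 against 28.4 and 48.7 (log2 change -1.03 ± 0.29). A peak in Prf1 held 96.2 and 68.3 against 48.3 and 21.3 (log2 change -1.31 ± 0.35), and another fell by 0.46. The list held 3 higher and 0 lower peaks without OTC replicate 1, 3 and 3 without OTC replicate 2, 4 and 2 without Zfp219 replicate 1, and 3 and 5 without Zfp219 replicate 2. The Il2 peak lost its call without OTC replicate 1 (adjusted p = 0.097, limma) and without Zfp219 replicate 1 (0.094).

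**Figure D3:**
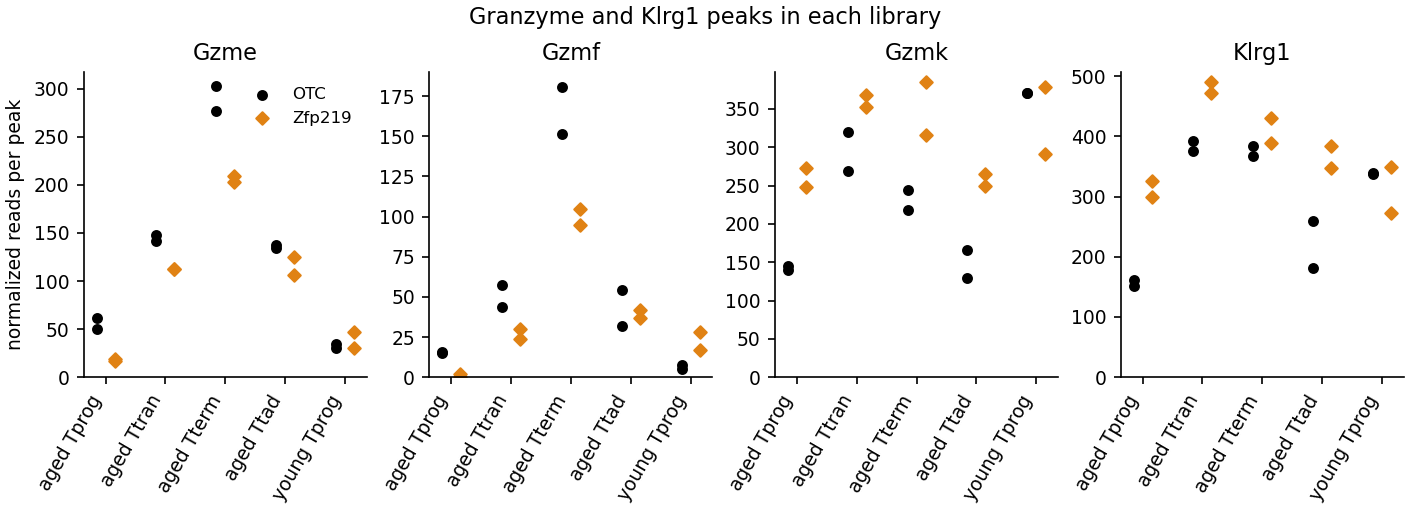
Normalized reads at the Gzme and Gzmf promoter peaks, a Gzmk peak and a Klrg1 peak in aged and young groups (y axis starts at 0, a panel a peak). Black circles are OTC libraries and orange diamonds Zfp219 libraries, 2 a group. In aged Tprog the Zfp219 libraries are below OTC at Gzme and Gzmf and above at Gzmk and Klrg1, and in young Tprog the Gzmf values of Zfp219 are above OTC.

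The stem-like and memory list, 16 genes with 195 peaks, held 2 higher and 6 lower peaks (4.10% called, against 2.56% of all peaks), with a median log2 change of -0.11. The lower peaks include 3 at Lef1 and others near Tcf7 and Ccr7, genes of naive and stem-like T cells. A peak near Tcf7 fell from 574 and 554 normalized reads to 394 and 428, a log2 change of -0.46 ± 0.12 (adjusted p = 0.025, limma). The Lef1 body peak of largest change fell from 87.2 and 90.5 to 24.2 and 18.3. A peak near Ccr7, a lymph node homing receptor gene, fell from 871 and 850.0 to 644 and 622. The 2 higher peaks belong to Klf2 and its target S1pr1, which governs exit from tissue: the S1pr1 peak held 49.8 and 46.1 against 128 and 105 (log2 change 1.25 ± 0.35), and the Klf2 promoter peak 589 and 698 against 830.3 and 822. Few of these calls outlast the loss of a library: the list held 0 called peaks without OTC replicate 1 or without Zfp219 replicate 1, 1 higher without OTC replicate 2 and 1 lower without Zfp219 replicate 2.

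The exhaustion list, 16 genes with 182 peaks, held 2 higher and 7 lower peaks (4.95% called, against 2.56% of all peaks), with a median of -0.09. The counts were 0 and 8 when scaled on the strongest 25% of peaks, 0 and 1 without OTC replicate 1, 2 and 2 without OTC replicate 2, 0 and 1 without Zfp219 replicate 1, and 1 and 4 without Zfp219 replicate 2. At Pdcd1, which encodes PD-1, the promoter peak held 2517 and 2749 normalized reads in OTC and 2235 and 2359 in Zfp219, a log2 change of -0.20 ± 0.06 that was not called by edgeR, without OTC replicate 2 or without Zfp219 replicate 1. A Pdcd1 peak outside the gene differed by 0.25, and was not called with quantile normalization, when scaled on the strongest 25% of peaks, after thinning or with any of the 4 libraries left out, so no direction is stated for it. A peak in Cd101, a marker of terminal exhaustion, fell from 204 and 158 to 82.5 and 101. A peak in Entpd1, which encodes CD39, went from 279.7 and 285 to 377 and 386. Genes of tissue residency and homing had 2 higher and 3 lower of 114 peaks (4.39% called), and among the lower was a peak near Rgs1 (511 and 398 against 269 and 277). That list held 0 called peaks without OTC replicate 1, 1 higher and 1 lower without OTC replicate 2, and 1 lower without either Zfp219 replicate.

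MAP kinases and their phosphatases had 7 lower peaks and no higher one among 115 (6.09% lower, against 1.45% of all peaks). The list holds Mapk14, the gene of p38 alpha, with 4 of its 8 peaks called, and the phosphatase genes Dusp1, Dusp2 and Dusp16. A weak Mapk14 body peak (chr17:28706776-28707026) held 46.4 and 63.9 normalized reads in OTC and 2.84 and 3.05 in Zfp219, 113 reads in all against 5, and had the largest fall of the table, -3.81 ± 0.61 on the log2 scale (adjusted p = 1.74e-05, limma). OTC was 19 times Zfp219, with an exact 95% counting interval of 7.90 to 59.6, and the peak was called with each library left out. The other 3 Mapk14 peaks fell by 0.38 to 0.63. With OTC replicate 1, OTC replicate 2, Zfp219 replicate 1 and Zfp219 replicate 2 left out in turn, Mapk14 had 1, 2, 1 and 1 called peaks. The Dusp2 peak fell from 875 and 901 to 608 and 672, and lost its call without Zfp219 replicate 1 (adjusted p = 0.072, limma). Leaving out each of the 4 libraries left 2 to 3 lower peaks in the list and no higher one. None of the 17 peaks of Dusp5, the other target of the study, was called.

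Runx, Ikaros and Ets factors had 1 higher and 9 lower peaks of 282 (3.55% called, against 2.56% of all peaks), with a median of -0.12, and 1 lower peak without OTC replicate 1, 4 without OTC replicate 2, 3 without Zfp219 replicate 1 and 6 without Zfp219 replicate 2. Most of the lower ones lie at Runx2, a Runx factor linked to memory and resident T cells. Runx3, which guides CD8 identity, had 1 lower peak, from 1265 and 1335 normalized reads to 1041 and 1076, and Ikzf3, the Aiolos gene, had 1, from 435 and 384 to 296 and 226. Cytokine receptors, STAT and SOCS genes had 1 higher and 5 lower of 166 peaks (3.61% called). None was called without OTC replicate 1 or without OTC replicate 2, 1 higher and 1 lower without Zfp219 replicate 1, and 5 lower without Zfp219 replicate 2, with 1 higher and 9 lower when scaled on the strongest 25% of peaks. Among them Tgfbr2, a TGF-beta receptor gene, fell from 213 and 208 to 115 and 87.3, a log2 change of -1.06 ± 0.25.

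T cell receptor signalling genes had 4 higher and 1 lower of 209 peaks (2.39% called, near the 2.56% of all peaks), and 2 and 2 when scaled on the strongest 25% of peaks. The counts were 3 and 0 without OTC replicate 1, 1 and 0 without OTC replicate 2, 2 and 1 without Zfp219 replicate 1, and 3 and 0 without Zfp219 replicate 2. A pair of the higher peaks lies near Lat, the adaptor that relays the receptor's signal, the stronger of which went from 273 and 262 normalized reads to 421 and 393. AP-1 factors had 1 higher and 2 lower of 82 peaks (3.66% called). With OTC replicate 1, OTC replicate 2, Zfp219 replicate 1 and Zfp219 replicate 2 left out in turn, the AP-1 list had 0, 1, 2 and 1 called peaks. Chemokines had 2 higher and 2 lower of 51 peaks (7.84% called), and 1, 0, 1 and 1 called peaks in the same order, with 1 higher and 4 lower when scaled on the strongest 25% of peaks. The interferon-stimulated list had 1 called peak of 24 (4.17%), near Usp18, a brake on interferon signalling, which went from 86.1 and 92.3 to 210.4 and 209 (log2 change 1.23 ± 0.21, adjusted p = 9.82e-05, limma). The Usp18 peak was called with each library left out. Ageing and cell-cycle genes had 1 lower of 61 peaks (1.64%), and none of the 29 ribosomal protein peaks was called. In all, 69 peaks at list genes were called, and 4 of them, near or in Gzmk, Klrg1, Mapk14 and Usp18, with each library left out.

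Some loci changed at several peaks. Runx2 had the most, with 7 of its 45 peaks lower and 41 of the 45 below 0. At St6gal1, which encodes an enzyme that adds sialic acid to surface glycoproteins, 6 of 22 peaks were lower. The strongest change there (chr16:23299807-23300826) was from 378 and 401 normalized reads to 148 and 216, -1.12 ± 0.19 on the log2 scale, and its promoter peak fell from 1150.4 and 1202 to 873 and 752. At Csf2, the GM-CSF gene, 5 of 12 peaks were lower and all 12 lay below 0, with a median log2 change of -0.58. Its promoter peak held 639 and 586 normalized reads in OTC and 454 and 368 in Zfp219 (log2 change -0.58 ± 0.14, adjusted p = 0.00804, limma).

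At Rora, a nuclear receptor gene, 5 of 30 peaks were lower, and the one at chr9:69319474-69320718 fell from 763 and 794 normalized reads to 505 and 467 (-0.68 ± 0.12, adjusted p = 8.11e-05, limma). The pair at chr9:69304122-69306123 and chr9:69313017-69315327, both above 1000 normalized reads, and that peak were called with each library left out. Dock10 and Lrch1 had 5 lower peaks each. At Snx29, a sorting nexin gene, all 5 called of 21 peaks were higher, by 0.64 to 2.17. Fewer were called with 1 library left out (OTC replicate 1, OTC replicate 2, Zfp219 replicate 1, then Zfp219 replicate 2). Runx2 then had 1, 3, 2 and 5 lower peaks, St6gal1 had 3, 3, 3 and 4, and Csf2 had 1, 3, 3 and 2. Dock10 had 1, 2, 2 and 4 lower peaks and Lrch1 0, 1, 1 and 1. Rora had 4 each time, and Snx29 had 1, 2, 3 and 4 higher peaks. Peaks of 1 locus are neighbours and not independent.

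**Figure D4:**
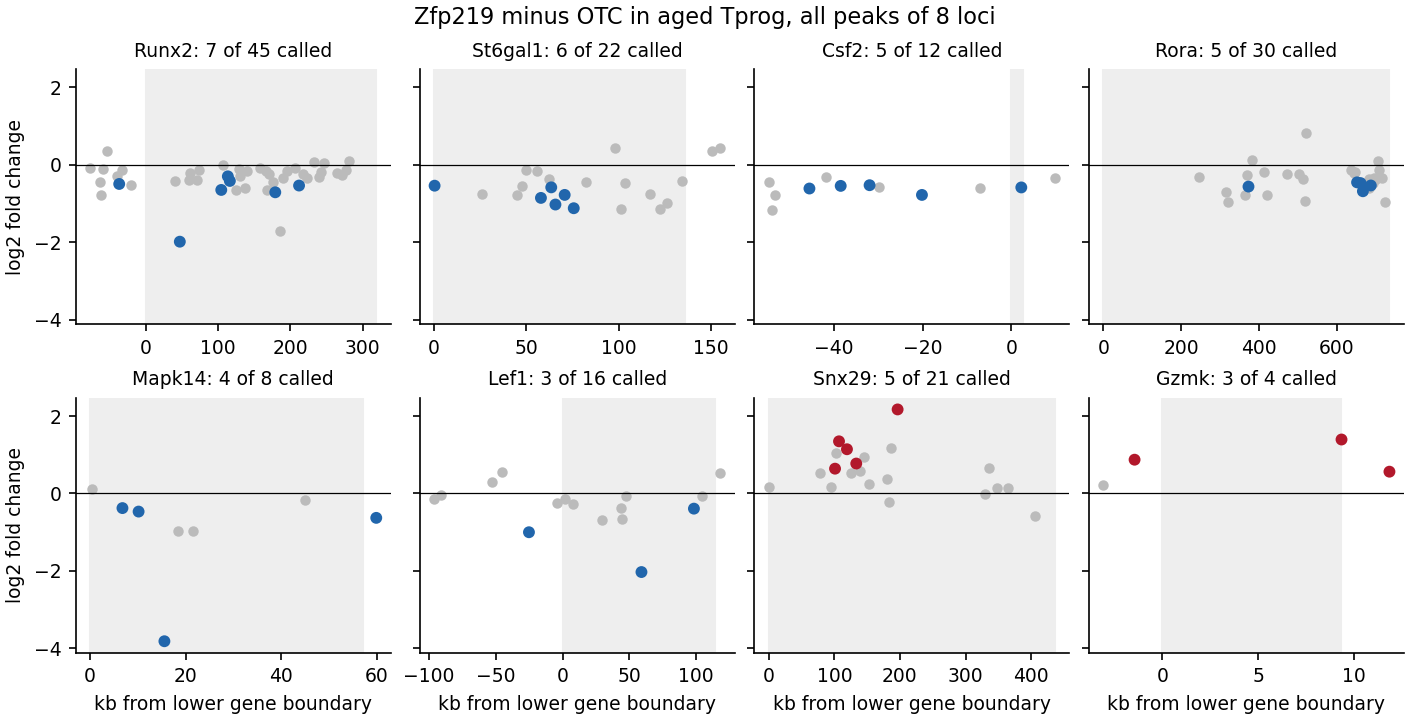
Log2 fold change (Zfp219 minus OTC, aged Tprog) of every peak of 8 loci against its distance in kb from the lower boundary of the gene. The gene body is shaded, and blue, red and grey points are lower, higher and uncalled peaks. Called peaks at Runx2, St6gal1, Csf2, Rora, Mapk14 and Lef1 are all lower, and those at Snx29 and Gzmk all higher.

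The largest folds lie at weak peaks. Over the 12 largest in each direction, with at least 30 normalized reads in the higher group, the change was 2.02 to 3.65 on the log2 scale at the higher peaks and -2.04 to -3.81 at the lower. Tnpo3, a nuclear import receptor gene, rose most, from 7.93 and 0 normalized reads to 41.2 and 32.5, and Dnah8, a dynein gene, fell from 44.2 and 35.5 to 11.4 and 0. Few were called with each library left out: 1 of the 12 higher, the Nipal3 peak (5.66 and 4.44 against 32.7 and 28.4), and 3 of the 12 lower, at Mapk14, Olfr56 and Crtap.

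Called peaks were set against sites that separate progenitor from terminal cells. These were taken from the young OTC libraries, whose group means do not enter the aged comparison, though they share its estimate of the spread. There, 26.5% of peaks differed: 7512 (13.9%) were more open in Tprog than in Tterm, and 6767 (12.6%) more open in Tterm. Of the 598 higher peaks, 217 (36.3%) were terminal-open and 73 (12.2%) progenitor-open. Of the 780 lower peaks, 214 (27.4%) were terminal-open and 170 (21.8%) progenitor-open. Counted the other way, 3.21% of terminal-open peaks were higher and 3.16% lower, against 0.778% and 1.0% of peaks in neither class. At progenitor-open peaks, 0.972% were higher and 2.26% lower. Called peaks are also stronger than most, with a median of 260 normalized reads for the higher and 295 for the lower peaks against 93.9 for all, and the part of signal strength in these shares was not tested.

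The peaks of aged Tprog were followed in the other aged states, whose Zfp219 and OTC libraries are different ones, though whether they came from the same mice is not recorded. Of the 780 lower peaks, 93.6% were also below 0 in Ttran, then 88.7% for Tterm and 89.9% for Ttad, where 49.7%, 50.6% and 49.7% of all peaks are. Called lower there were 483 (background 8.29%), 250 (2.51%) and 351 (4.56%). Of the 598 higher peaks, 76.9%, 78.4% and 86.1% were above 0, against 50.3%, 49.4% and 50.3% of all peaks, with 134 called higher in Ttran (5.92%), 63 in Tterm (1.06%) and 192 in Ttad (3.66%). Called the opposite way in Ttran, Tterm and Ttad were 34, 15 and 11 of the higher peaks and 2, 0 and 2 of the lower. The sign matched in all 3 states at 636 of the lower peaks (81.5%, against 24.3% of all peaks) and at 377 of the higher (63.0%, against 24.1%). It was opposite in all 3 at 16 of the lower and 42 of the higher.

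In Tprog of young hosts, where the 2 Zfp219 and 2 OTC libraries are again different ones, the shares lay nearer those of all peaks. There 50.7% of the higher peaks were above 0 and 64.5% of the lower below 0, where 49.2% and 50.8% of all peaks are. Called the same way were 3 of the higher (0.254% of all peaks are called higher) and 32 of the lower (0.743%), and the opposite way 5 and 2. In all, 537 peaks were called in young Tprog (0.997%).

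**Figure D5:**
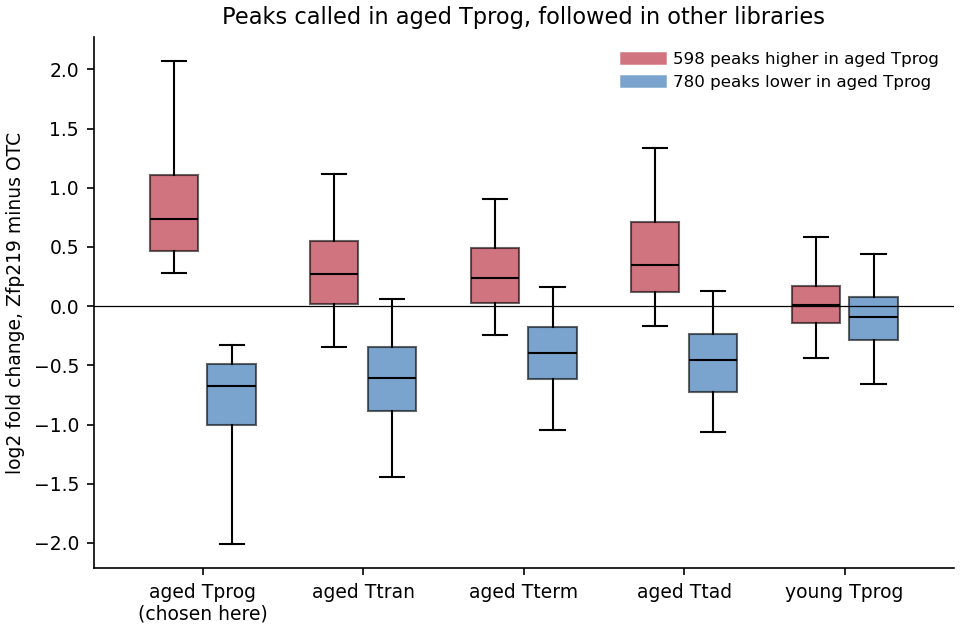
Log2 fold change (Zfp219 minus OTC) of the 598 peaks called higher (red) and 780 called lower (blue) in aged Tprog, in the libraries of each group on the x axis. Boxes hold the middle 50% with the median as a line, whiskers the 5th to 95th percentile, and the leftmost pair chose the peaks. Medians in the other aged states lie on the same side as in aged Tprog, and in young Tprog near 0.

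The difference of the Zfp219 effect in aged Tprog from its mean in the other 3 aged states passed the test at 682 peaks (1.27%), 492 more positive in Tprog (0.913%) and 190 more negative (0.353%). The split was 173 and 137 with quantile normalization (55.8% positive against 72.1%), and the count 266 without OTC replicate 1, 401 without OTC replicate 2 and 281 without Zfp219 replicate 1. The promoter peaks of Clybl, Prmt1, Qdpr and Zbtb37 are among the 492. At Clybl the log2 change was 0.63 in Tprog and -0.24 in Ttran, -0.26 in Tterm and -0.21 in Ttad, a difference of 0.86 ± 0.15 (adjusted p = 6.07e-05, limma). Gzme and Gzmf are among the 190: Gzme fell by 1.57 in Tprog and by 0.36, 0.49 and 0.23 in the other states (difference -1.21 ± 0.31, adjusted p = 0.0208, limma). All these promoters were picked for their change in aged Tprog, which enters the difference. Passing in that direction is therefore partly built in.

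The peak of lowest p in that difference, in Thy1, a surface glycoprotein gene of T cells, rests on the other states. It averaged 129 normalized reads in OTC and 205 in Zfp219 of aged Tprog (adjusted p = 0.0023, limma, and not called without OTC replicate 2 or without Zfp219 replicate 2). The Ttran average was 2998 in OTC and 3155 in Zfp219, the Tterm average 894 and 130.3, and the Ttad average 4748 and 617. No other of the 14 Thy1 peaks was called in aged Tprog. Whether the reads at this peak come from open chromatin at Thy1 was not tested.

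The difference between aged and young Tprog passed the test at 568 peaks (1.05%), 330 more positive in aged hosts (0.613%) and 238 more negative (0.442%). Scaling on the strongest 25% of peaks turned that balance to 138 positive and 420 negative, with a median over all peaks of -0.10, so no direction of the split is stated. The count was 222 without OTC replicate 1, 353 without OTC replicate 2 and 259 without Zfp219 replicate 1. Gzmf differed most among the peaks described above, with a change of -3.24 in aged and 1.65 in young Tprog (difference -4.89 ± 0.73, adjusted p = 1.06e-05, limma). Klrg1 changed by 0.99 in aged and -0.13 in young cells (difference 1.13 ± 0.20, adjusted p = 0.000537, limma), and the first Gzmk peak by 0.87 and -0.16 (difference 1.03 ± 0.21, adjusted p = 0.00419, limma). At these 2 peaks the young OTC libraries averaged 338 and 371 normalized reads, against 156 and 142 in the aged OTC libraries and 313 and 261 in the aged Zfp219 libraries. Levels of young and aged libraries were not tested against each other. Both peaks were picked from the aged comparison, where OTC was the lower group. That comparison also enters the difference from young Tprog, so part of these differences, that of Gzmf included, is built in.

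Against the Dusp5 guide in aged Tprog, which has 2 libraries of its own, the Zfp219 libraries differed at 1019 peaks (1.89%), 636 higher (1.18%) and 383 lower (0.711%), and at 351 without Zfp219 replicate 1 and 632 without Zfp219 replicate 2. Without Dusp5 replicate 1 it was 380 and without Dusp5 replicate 2 it was 670, both chosen after seeing the data. The Dusp5 guide and the Zfp219 guide share the OTC controls, so their changes from OTC are not set against each other. The peaks of largest difference between the guides are weak. Near Esm1 a peak averaged 47.9 normalized reads in Zfp219 and 2.19 in Dusp5, with 13.2 in OTC, and near Tlx1 a peak averaged 3.55 in Zfp219 and 25.8 in Dusp5, with 21.8 in OTC.

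A group of called peaks sits at the boundary of the pseudoautosomal region, where the ends of X and Y share sequence. On X, 3 peaks at Mid1, which spans the boundary, were higher, by 0.31 to 0.42 on the log2 scale, and on Y 5 peaks named for Gm52481 were higher by 0.28 to 0.52. The strongest of the Y peaks held 7469.7 and 7800.4 normalized reads in OTC and 9662 and 9251 in Zfp219. Peaks on X and Y there are near-copies, so the placement of reads is uncertain and they are not separate observations. With quantile normalization that strongest Gm52481 peak had a log2 change of 0. Leaving out scaffolds, chromosome Y and the end of X (177 peaks) left 1370 called peaks.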

How the data were processed

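ATAC-seq was compared between 2 Zfp219 and 2 OTC libraries of aged Tprog; 44 further libraries entered the fit. Per the submitters' processing notes the tools were Bowtie2 2.2.9, Picard 2.8.0, SAMtools 1.3.1, MACS2 2.1.1 and DESeq2 1.28.1, with build mm10; their roles and settings, how duplicates were handled and whether insertion sites were shifted are not given in the sources used here. The authors deposited a normalized signal per peak and library, per the file headers. Its values are whole multiples of 1 step per library, so whole reads were recovered for 100% of values (tolerance 1e-04 reads). Intervals and floors cover counting error only, since without molecular identifiers several reads can come from 1 molecule.

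The test was limma 3.58.1 (R 4.3.3; lmFit, eBayes with trend) on log2(value + 1), with all 48 libraries in 21 group means, 27 residual degrees of freedom and Benjamini-Hochberg adjustment over 53868 peaks. On that scale fold changes understate those of weak peaks. edgeR 4.0.16 and DESeq2 1.42.0 on recovered reads were alternatives. On simulated reads, limma recovered 61% of 200 peaks changed 2-fold in this comparison over 53868 peaks, with 15 false calls, and edgeR 61.5% with 7. The simulated libraries shared 1 mean per peak apart from the planted changes, without differences of state or age. Their variance was set at 3 times counting noise. Changed peaks were drawn from above a floor of signal, so the recovered share does not cover the weakest peaks. Peaks were placed by the RefSeq gene table of GRCm38.p6, the same assembly as mm10, with gene bodies and 300-base promoter windows; exons, introns and untranslated regions were not used here. The members and gene lists were chosen with earlier results of these data known.

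Named peaks are the 12 largest changes per direction among called peaks with at least 30 normalized reads in the higher group, no overlap and a gene symbol that is no placeholder; the strongest and the largest called peak of each list gene; all peaks of Zfp219 and Dusp5; the 8 genes with most called peaks; the 5 largest called per direction in each difference test; and the 6 promoter peaks per direction of lowest adjusted p. Of these, the text gives the ones it describes, and some are not reported here. The 12 peaks of lowest adjusted p, the granzyme cluster, the X and Y boundary and the peaks whose group differences are given were added after their values were seen. Other settings, replicates left out in turn included, are described after the report.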

Additional observations from a re-analysis of the deposited data

Results flagged for a closer look

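In 2 comparisons the effect of the Zfp219 guide in aged Tprog was set against its effect elsewhere in 1 model, and both passed the limma test at many peaks: 682 against the mean of the aged Ttran, Tterm and Ttad effects, and 568 against young Tprog. Single libraries that stand apart within a group were not sought, since groups of 2 or 3 libraries are too small for it. The peaks given below were picked from the aged Tprog comparison, which enters both differences, so part of each difference is built in.

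Against the other aged states, the log2 difference was -1.21 at the Gzme promoter peak and -2.68 at the Gzmf promoter peak. It was 0.86 at the Clybl promoter, 0.44 at Prmt1, 0.56 at Qdpr and 0.41 at Zbtb37. In the Klrg1 body it was 0.59, near Tafa3 1.20, in Rasl12 0.90 and at the chromosome 7 peak with no gene -0.88.

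Against young Tprog, the log2 difference was -1.78 at the Gzme promoter, -4.89 at the Gzmf promoter and -4.17 at the weak Mapk14 body peak. It was 0.35 at the Prmt1 promoter, 0.55 at the Zbtb37 promoter and -1.37 at the Kctd8 promoter. Klrg1 gave 1.13, the Gzmk peak 1.03, the Usp18 peak 1.39 and the Il2 peak -0.71. Tafa3 gave 1.83, Cmklr1 1.41, Rasl12 1.85 and the chromosome 7 peak -1.26.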

How the results depend on the processing

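The count of peaks called between Zfp219 and OTC in aged Tprog stayed within 1.5 times 1378 under pseudocount 8, without the weakest 25% of peaks, under quantile normalization, rescaling on the strongest 25% of peaks, edgeR and DESeq2 on recovered reads, library quality weights, fitting only the compared groups, a replicate block, and, chosen after seeing the data, without scaffolds, chromosome Y and the X boundary. It was 748 after thinning to the smallest library, and 427 to 880 with a library left out, where the lone sample is assumed to vary like the other groups. The difference from the other aged states (682) gave 310 under quantile normalization, 1140 by DESeq2, 364 after thinning and 266 to 556 with a library left out. The difference from young Tprog (568) gave 274 with the compared groups alone, 1212 by DESeq2, 261 after thinning and 222 to 487 with a library left out. Zfp219 against Dusp5 (1019) gave 582 after thinning and 351 to 1001 with a library left out, where the 1001 is without an OTC library, which that comparison does not use; without its own Zfp219 or, chosen after seeing the data, Dusp5 libraries it gave 351 to 670. Thinning leaves fewer reads and a left-out library fewer samples; the other causes were not tested. The replicate block gave 1369, 671, 550 and 989 calls; same-numbered libraries share only a number, with a correlation of 0.0097 between their deviations from the group means. Of 160 called peaks named by the rules, none changed sign under any setting that tested them (1, the strongest Gm52481 peak, came to 0 with quantile normalization). Left-out libraries aside, 76 were called in every setting that tested them. Some weak peaks among them were not tested without the weakest 25% of peaks or had no adjusted p by DESeq2. Counts of reads limit weak peaks, and 67 of the 160 lost the call after thinning.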
